A study of Sus scrofa with 96 samples.

Results

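Liver gene expression was contrasted between boars of high and of low genetic merit of boar taint (BT), in the 30 liver libraries of these groups that were made with the stranded mRNA kit. They were chosen by merit group and kit, 15 of high BT and 15 of low BT, from 48 liver libraries and 96 libraries in all. The boars were entire males of commercial Danish Landrace. Merit was the sum of the estimated breeding values (EBVs) of skatole in fat and of human nose score, and both came from the sire, so that a boar's group describes its sire and no taint compound was measured in the boar itself. The high and low groups were taken from the extremes of this sum. Boars of a group could share a sire. The labels do not tie sires to libraries, so the p-values below treat the boars as unrelated. Each liver was a punch of tissue put into RNAlater soon after slaughter, and the stranded mRNA kit was reserved for RNA of higher integrity. The 16 medium BT livers made with the same kit did not enter the contrast, and their levels are given beside it. The 2 remaining livers of high and low BT were total RNA libraries.

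Boar taint is the odour of heated fat from some entire males and comes mainly from skatole, which gut bacteria make from tryptophan, and androstenone, a steroid of the testis. The liver clears both. It oxidises skatole through cytochromes P450 and other phase I enzymes, reduces androstenone through hydroxysteroid dehydrogenases, and then conjugates the products so that they can be excreted. The level of these liver enzymes is therefore the usual place to look for a difference between boars of unlike merit.

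Of 25322 genes in the deposited counts, 12232 had a mean count above 5 over the 30 livers and were tested, and 8267 of these (67.6%) could be given a symbol. Reads counted on genes ranged from 6401872 to 11627783 per liver. These reads were 45.2% to 65.7% of those placed on genes, outside genes, as ambiguous or as of low alignment quality. Reads with no alignment or with several were left out of this percentage. The median correlation of a liver with the others was 0.923 to 0.953. None of 6 library measures differed between the groups after adjustment over the 6 in a two-sided permutation test. The largest gap was in the percentage of reads taken by the 10 most-read genes of a liver, which was 32.1% ± 4.26 in high BT and 29.2% ± 3.30 in low BT (SD, n = 15 each; permutation p = 0.0514, adjusted p = 0.308). The quality weight that limma gave each liver ranged from 0.569 to 1.86, and the lowest belonged to boar 1127 of low BT, boar 8332 of high BT and boar 3102 of low BT, at 0.569, 0.591 and 0.657. Boar 8332 also had the smallest share of reads in its 10 most-read genes, 20.4%, and the highest scaling factor, 1.57. These weights were estimated in the same group fit, so a liver far from the mean of its own group gets a low one. Leaving such livers out tends to narrow the groups. The count of genes passing is given without these 3 livers too. So are the counts of lists that moved by 2 or more members without them.

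Differences between high and low BT were small for nearly all liver genes. A log2 fold change below is high minus low BT, so that 1 is a doubling in high BT. Its median absolute value was 0.168 over the 12232 genes, and the genes between the 5th and the 95th percentile lay between -0.45 and 0.42. Only 38 genes were above 1 and 41 below -1. The 79 genes beyond these limits had few reads, with a median mean count of 13.1 against 80.7 for all genes, and 65 of them had an unadjusted p under 0.05. The median over all genes was 0.01. Because the scaling factors are set so that most genes change little, this median cannot show whether the whole set shifted.

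How small a difference the 30 livers could resolve depended on the level of the gene, here given as log2 CPM, in which CPM is the count scaled by the depth of the library. Of the 4822 genes between 3 and 6 log2 CPM, 97.7% had a 95% confidence interval that lay wholly within a doubling either way, and the median standard error was 0.12. In the 1257 genes below 0 log2 CPM this share was 59.8% and the median standard error was 0.32. At 9 log2 CPM and above, the 229 genes had a median standard error of 0.17 and 93.4% of intervals within a doubling. Across all genes, 91.1% of intervals excluded a doubling in either direction and 46.7% excluded a log2 difference of 0.5. The share of genes with an unadjusted p under 0.05 was 9.39% below 0 log2 CPM, 11.8% from 0 to 3, 23.1% from 3 to 6, 26.6% from 6 to 9 and 23.6% above that.

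**Figure D1:**
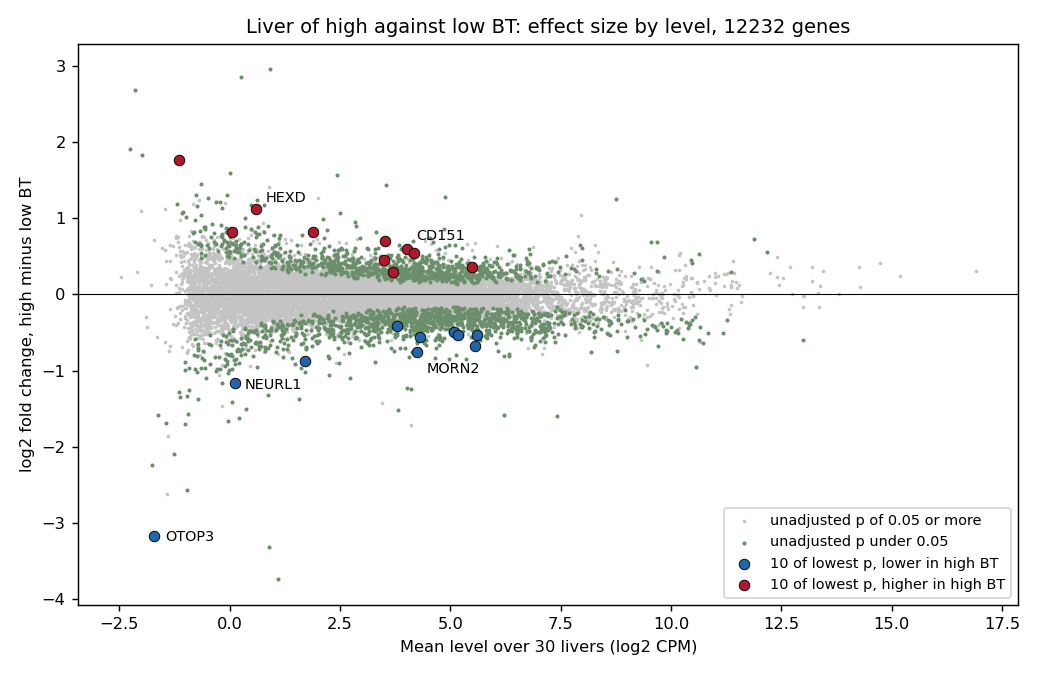
Log2 fold change (high minus low BT) of 12232 liver genes against their mean level in log2 CPM over the 30 livers, with genes of unadjusted p under 0.05 in green and the 10 genes of lowest p in each direction as large points. The spread narrows from the left, where the median standard error was 0.32 below 0 log2 CPM, to 0.12 between 3 and 6, and OTOP3 is the named gene farthest from 0 at -3.17.

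No gene passed an adjusted p of 0.05 in limma (0%), and the genes nearest to it formed a broad tie. The lowest adjusted p was 0.0513 and was shared by 75 genes, 59 of them lower and 16 higher in high BT, whose own p-values reached up to 0.000314. An unadjusted p under 0.05 was found for 2170 genes (17.7%), and high BT was the higher group in 933 of them (7.63%) and the lower group in 1237 (10.1%). In no gene did the groups fail to overlap (0%). Without the scaling factors of the trimmed mean of M-values (TMM) the split was 290 higher and 1733 lower, and the median of all genes moved to -0.07. The edgeR quasi-likelihood test also passed 0 genes, with 1601 at an unadjusted p under 0.05, and the Wald test of DESeq2 passed 21, with 1659.

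How many genes passed moved when single livers were left out, and the cause was not tested. Leaving out 1 liver gave 0 genes in 17 of 30 refits and at least 1 in the other 13. Without boar 1127 of low BT, 472 genes passed. The other low BT livers whose omission gave calls were boar 1137 with 172 genes, boar 1325 with 132, boar 1112 with 73, boar 8101 with 59, boar 9312 with 36 and boar 9137 with 4. Among high BT livers, leaving out boar 1334 gave 160 genes, boar 1326 gave 157, boar 7325 gave 104, boar 1338 gave 2, and boars 8332 and 9129 gave 1 each. Leaving out the 3 livers of lowest weight together gave 323 genes, 60 of them higher. Because the weights fall with distance from a liver's own group, this count is no independent check. The number at an unadjusted p under 0.05 moved far less, from 1796 to 2535.

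**Figure D2:**
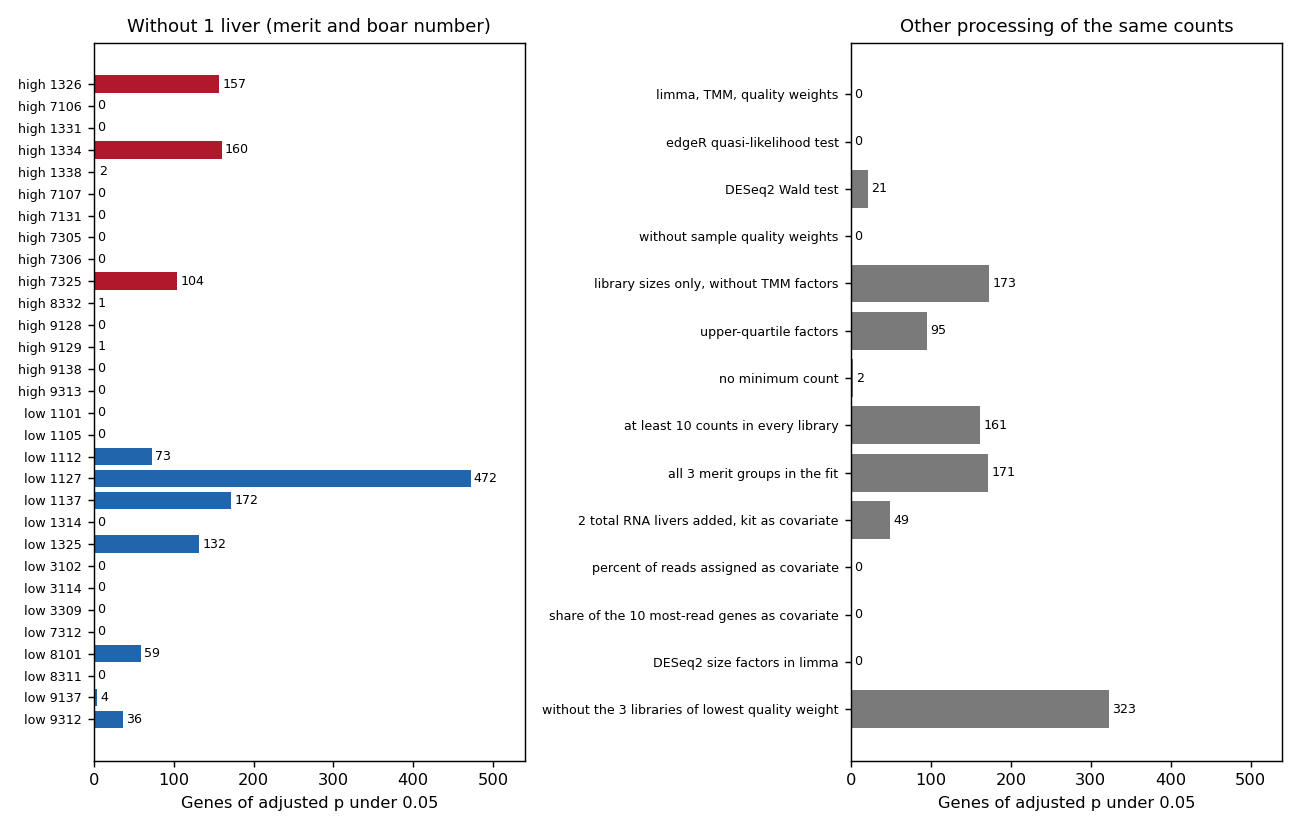
Number of genes with an adjusted p under 0.05 when each of the 30 livers is left out in turn (left, red for high BT and blue for low BT, with the boar number) and when the same counts are processed in other ways (right). The bars run from 0 in 17 of the 30 refits to 472 without boar 1127 of low BT, and from 0 to 323 on the right.

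Refits were also followed for the genes of lowest p. The 100 genes of lowest p, 79 lower and 21 higher in high BT, kept their direction and an unadjusted p under 0.05 in all 30 refits without 1 liver and in each of the 13 other ways of processing that tested them. All of these draw on the same livers, and the genes were chosen by p in the same contrast, so this is a description of them and no test. The setting with at least 10 counts in every liver left out genes with few reads. Their absolute log2 fold changes ran from 0.29 to 3.17 with a median of 0.56, and 89 of the 100 were smaller in edgeR. With the percentage of reads in the 10 most-read genes as a covariate, none of the 100 passed the adjusted threshold and the highest unadjusted p among them was 0.0328, and the median gene kept 81.8% of its size. Without boar 1127 of low BT all 100 passed, at a median of 107% of the size with all livers. Of the 2170 genes at an unadjusted p under 0.05, 2170 kept their direction in every refit without 1 liver. In every other way of processing that tested them, 2169 kept it. Only 1265 stayed under 0.05 in every refit without 1 liver, and 561 in every other way of processing that tested them.

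Among the genes lower in high BT, MORN2, which encodes a protein with MORN repeats, had the lowest p of those with a symbol. Its level was 10.7 CPM in the lowest high BT liver, 13.3 in the median and 26.8 in the highest, against 10.1, 26.6 and 47.6 CPM in low BT. The groups overlapped, but 14 of the 15 high BT livers lay below the low BT median and 7 low BT livers lay above every high BT liver. The log2 fold change was -0.75 ± 0.15 (SE; p = 1.17e-05, limma adjusted p = 0.0513), a level 1.68 times higher in low BT. It lay between -0.81 and -0.69 in the refits without 1 liver, passed the adjusted threshold in 9 of the 30, and was -0.74 in edgeR with an adjusted p of 0.150. The gene of lowest p overall was ENSSSCG00000023596, which has no symbol here. Its log2 fold change was -0.87 ± 0.16 (p = 5.3e-06, limma adjusted p = 0.0513), with medians of 2.41 CPM in high BT, 2.05 in medium BT and 4.35 in low BT, and it passed in 13 of 30 refits.

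AASDHPPT, the enzyme that attaches the phosphopantetheine arm to acyl carrier proteins and fatty acid synthase, separated the groups more fully. Its level ran from 22.6 over a median of 29.5 to 38.4 CPM in high BT and from 21.7 over 43.1 to 64.5 CPM in low BT. All 15 high BT livers lay below the low BT median, and 10 low BT livers lay above every high BT liver. The log2 fold change was -0.54 ± 0.12 (limma adjusted p = 0.0513), and the medium BT median was 33.1 CPM. The neighbouring gene KBTBD3, which encodes a kelch and BTB protein, was at -0.62 ± 0.14. PDCD10, an adaptor of the STRIPAK kinase complexes, was at -0.56 ± 0.13, with medians of 36.3 CPM in high BT and 54.4 in low BT. In 11 low BT livers PDCD10 exceeded the highest high BT liver. ZBTB1, a transcriptional repressor, had the narrowest spread among the 10 of lowest p and ran from 8.45 over 12.2 to 16.4 CPM in high BT and from 11.1 over 15.4 to 20.2 CPM in low BT. Its log2 fold change of -0.42 ± 0.09 came with a medium BT median of 12.5 CPM.

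Further genes with a symbol shared the adjusted p of 0.0513, and those given here covered unlike functions. MRPL13, of the large subunit of the mitochondrial ribosome, was at -0.57 ± 0.13, and all 15 high BT livers lay below the low BT median. The cell cycle protein geminin (GMNN), which blocks licensing of DNA replication, was at -0.53 ± 0.12. PLGRKT, a receptor of plasminogen, was at -0.57 ± 0.13, with 33.4, 51.4 and 67.5 CPM as lowest, median and highest in high BT and 38.7, 67.6 and 133 CPM in low BT. For membranes and lipids, SGPP1, a phosphatase of sphingosine 1-phosphate, was at -0.64 ± 0.15, SNX14, a sorting nexin of the endoplasmic reticulum, at -0.56 ± 0.13, and the lysosomal transporter MFSD8 at -0.38 ± 0.09. NT5C3A, a pyrimidine nucleotidase, was at -0.57 ± 0.14 and the adaptor NCK1 at -0.42 ± 0.10. UBXN8, an adaptor of the p97 ATPase in the endoplasmic reticulum membrane, had the largest of these differences, -0.79 ± 0.19, with medians of 59.2 CPM in high, 94.6 in medium and 108 in low BT. None of these genes separated the groups without overlap. The study's table of leading liver genes, drawn from these livers, holds MORN2, AASDHPPT, KBTBD3, PDCD10, PLGRKT, SGPP1 and SNX14. It also holds NEURL1, SPCS3 and SEC11C, which are described below. All of these were lower in high BT there, so their direction here is no independent evidence.

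Some of the lowest p-values belonged to genes with few reads. NEURL1, a ubiquitin ligase, was at -1.17 ± 0.23 with a mean count of 10.9, and its median was 0.89 CPM in high BT and 1.56 CPM in low BT. OTOP3, a proton channel of the otopetrin family, had a mean count of 8.8. No read of OTOP3 was counted in 11 of the 15 high BT livers, in 1 low BT liver and in 3 of the 16 medium BT livers, and its log2 fold change was -3.17 ± 0.67. The other genes without a symbol among the 10 of lowest p, ENSSSCG00000009063, ENSSSCG00000016263 and ENSSSCG00000029864, were at -0.67, -0.50 and -0.54, and ENSSSCG00000022890 was at -0.56 with 11 of the 15 high BT livers below the lowest low BT liver.

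Genes higher in high BT were fewer among those of lowest p, and CD151 came first. CD151, a tetraspanin that binds integrins, ran from 12.0 over a median of 20.6 to 27.3 CPM in high BT and from 8.22 over 13.0 to 27.0 CPM in low BT. In 14 of 15 high BT livers it lay above the low BT median, although the highest low BT liver reached nearly the highest high BT liver. Its log2 fold change was 0.60 ± 0.12 (p = 2.82e-05, limma adjusted p = 0.0513), or 0.49 in edgeR with an adjusted p of 0.197, and the medium BT median was 20.1 CPM. EHD4, an ATPase of endocytic recycling, had 8.61, 14.6 and 25.1 CPM as lowest, median and highest in high BT and 4.94, 9.54 and 20.4 CPM in low BT, a log2 fold change of 0.71 ± 0.16. Endoglin (ENG), a co-receptor of transforming growth factor beta on endothelium, ran from 20.5 over 50.5 to 66.5 CPM in high BT and from 19.1 over 30.1 to 60.6 CPM in low BT. Its log2 fold change was 0.61 ± 0.15. In bulk liver a gene's level joins the number of cells that use it with the RNA in each, and fewer cells of a type cannot be told apart from less RNA per cell.

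**Figure D3:**
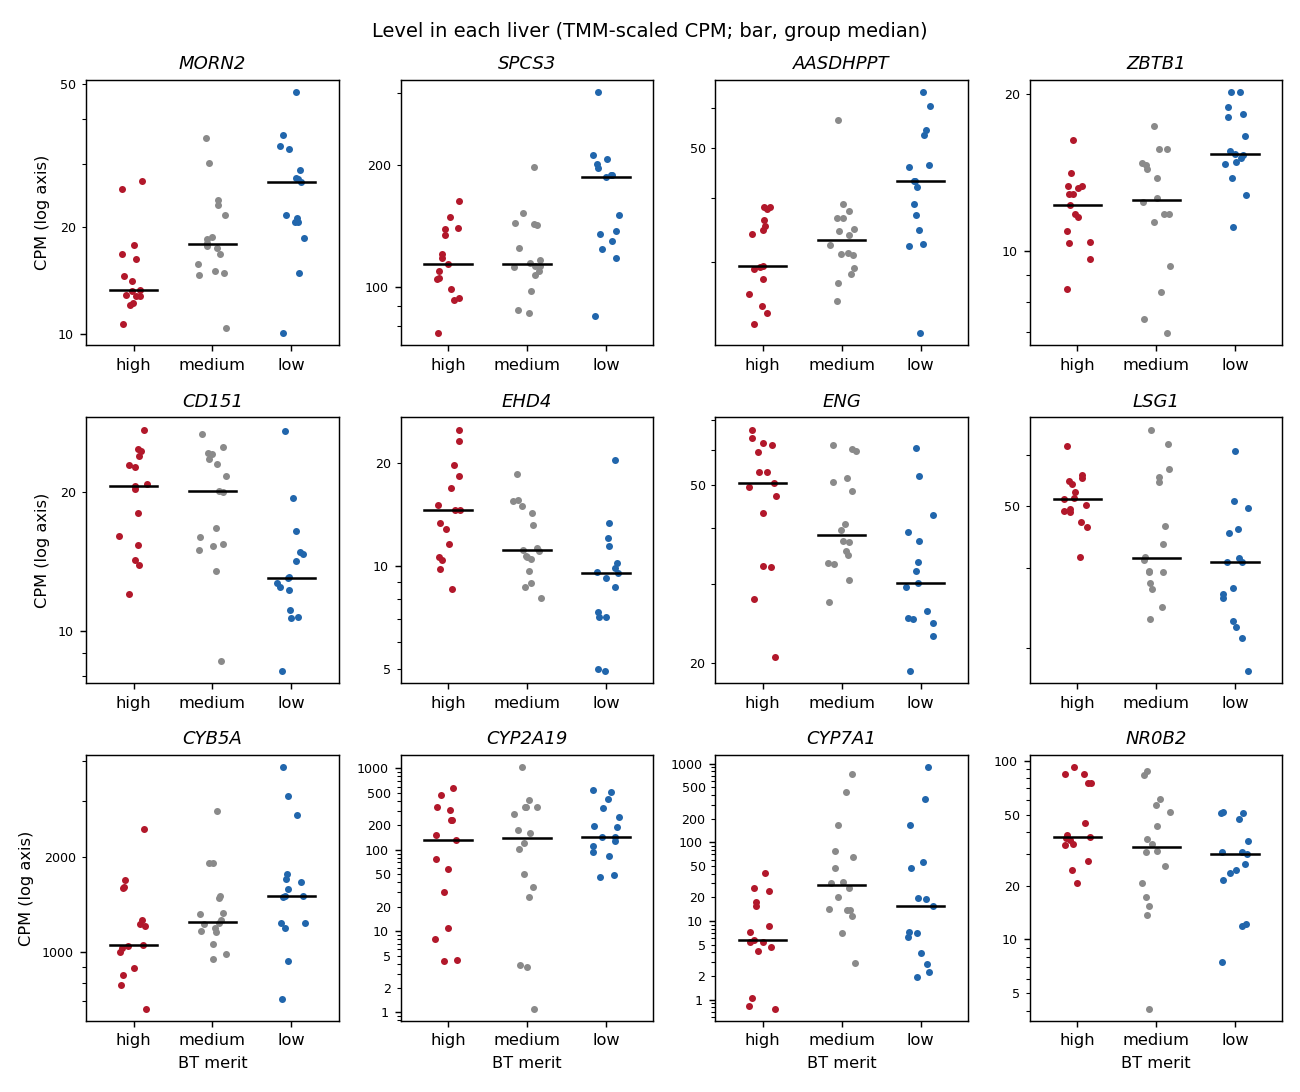
Level of 12 genes in each high (n = 15), medium (n = 16) and low BT liver (n = 15), as TMM-scaled CPM on a log axis, with the group median as a bar. The groups overlap in all 12, for example from 10.7 to 26.8 CPM in high and from 10.1 to 47.6 CPM in low BT for MORN2.

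The other genes higher in high BT ranged in log2 fold change from 0.29 to 1.77. LSG1, a GTPase of the maturation of the large ribosomal subunit, ran from 41.6 over 51.3 to 61.9 CPM in high BT and from 27.6 over 40.9 to 60.9 CPM in low BT, a log2 fold change of 0.36 ± 0.09. All 15 high BT livers lay above the low BT median of LSG1, and 10 low BT livers lay below every high BT liver. The same was true against the low BT median for COG8, a subunit of the Golgi tethering complex, at 0.45 ± 0.11, and for BANP, a chromatin protein, at 0.82 ± 0.19 with a mean count of 9.83. NCAPH2, of condensin II, was at 0.29 ± 0.07 with medians of 14.5 and 11.6 CPM, and RAE1, of mRNA export, at 0.55 ± 0.13. HEXD, a hexosaminidase, was at 1.12 ± 0.26 with medians of 2.10 CPM in high and 0.999 CPM in low BT. The vesicle fusion factor NAPA was at 0.29 ± 0.07, the HSP90 co-chaperone CDC37 at 0.33 ± 0.08, the secreted Wnt antagonist DKK3 at 0.89 ± 0.22 and B3GALT6, of proteoglycan linker synthesis, at 0.88 ± 0.22. Among transcription factors, NR5A2, a nuclear receptor that drives bile acid and cholesterol genes in liver, was at 0.50 ± 0.14 (limma adjusted p = 0.0711), and the heat shock factor HSF1 at 0.37 ± 0.10 (limma adjusted p = 0.0711). Without a symbol, ENSSSCG00000024816 was at 1.77 ± 0.41 with a mean count of 5.8 and ENSSSCG00000003968 at 0.83 ± 0.20.

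The extremes of the fold changes were genes that were nearly silent in some livers and plainly read in others. DMAC1, an assembly factor of respiratory complex I, ranged from 0 over 9.06 to 21.3 CPM in high BT and from 0 over 0.177 to 12.9 CPM in low BT, with a log2 fold change of 2.95 ± 1.02 (limma adjusted p = 0.125) and a medium BT median of 0.151 CPM. SMDT1, a subunit of the mitochondrial calcium uniporter, was at -2.61 ± 1.29 (limma adjusted p = 0.284), and its medians of 0.127 and 0.152 CPM hardly differed. CRISP2, a protein of sperm, was at 1.82 ± 0.61 with a mean count of 5.77. The lowest log2 fold change of all, -3.74 ± 1.05 for ENSSSCG00000022796, was -1.93 in edgeR (limma adjusted p = 0.0808). ENSSSCG00000010610 followed at -3.31 ± 1.00, and ENSSSCG00000003824 was at 2.69 ± 0.70 with no read in 11 low BT livers.

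The 79 genes lower in high BT among the 100 of lowest p varied together across boars, also after the group means were removed. With group means removed, the median correlation between pairs of these genes was 0.46 over the 30 boars, and 44.5% of their 3081 pairs exceeded 0.5, against a median of -0.003 and 3.37% for the 74804796 pairs of all genes tested. The pairs share the same libraries and scaling factors. All genes are an unlike background, because the 79 were chosen for 1 direction and a low p. The 100 genes of lowest p also had more reads, with a median mean count of 173 against 80.7 for all genes. For the 21 higher genes the median correlation was 0.11, and between lower and higher genes it was -0.21. Levels also varied more from boar to boar in low BT. The median SD of the 79 lower genes was 0.43 log2 units there against 0.34 in high BT, with 55 of 79 wider in low BT. For the 21 higher genes it was 0.40 against 0.33, with 18 of 21 wider. The share wider in low BT was 61.2% among all genes tested.

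Averaged per liver, these genes describe how the boars lie, without testing it, since the same contrast chose them. The mean of the 79 lower genes, as a log2 difference from the mean of the 30 boars, ran from -0.59 over -0.33 to 0.16 in high BT and from -0.55 over 0.35 to 0.83 in low BT. In 9 of 15 low BT boars it lay above every high BT boar. Boar 1127 of low BT, at -0.55, was the 1 low BT boar below the high BT median. The high BT boars nearest to low BT were 1334 at 0.16 and 1326 at 0.05. For the 21 higher genes the mean ran from -0.03 to 0.65 in high BT and from -0.54 to 0.06 in low BT.

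The medium BT livers, which did not enter the contrast, had levels of most of these genes nearer to high than to low BT. Of the 79 lower genes, the medium BT median was nearer to the high BT median in 68 and nearer to the low BT median in 11. It lay between both medians in 54, beyond the high BT median in 25 and beyond the low BT median in 0. The median gene had gone 85.4% of the way from low to high BT. Of the 21 higher genes, 14 were nearer to high BT and 7 nearer to low BT, with 77.3% of the way for the median gene. The mean of the 79 lower genes ran from -0.42 over -0.18 to 0.68 in medium BT, the highest being boar 1113. Because the genes were chosen for a gap between high and low BT, no test was made of these positions. The make-up of the libraries differed as well. The 10 most-read genes took a median of 32.3% of reads in medium BT, 33.4% in high BT and 28.4% in low BT. The median percentage of reads assigned to genes was 63.8% in medium BT, 58.1% in high BT and 57.1% in low BT. The part of this make-up in the positions was not tested.

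**Figure D4:**
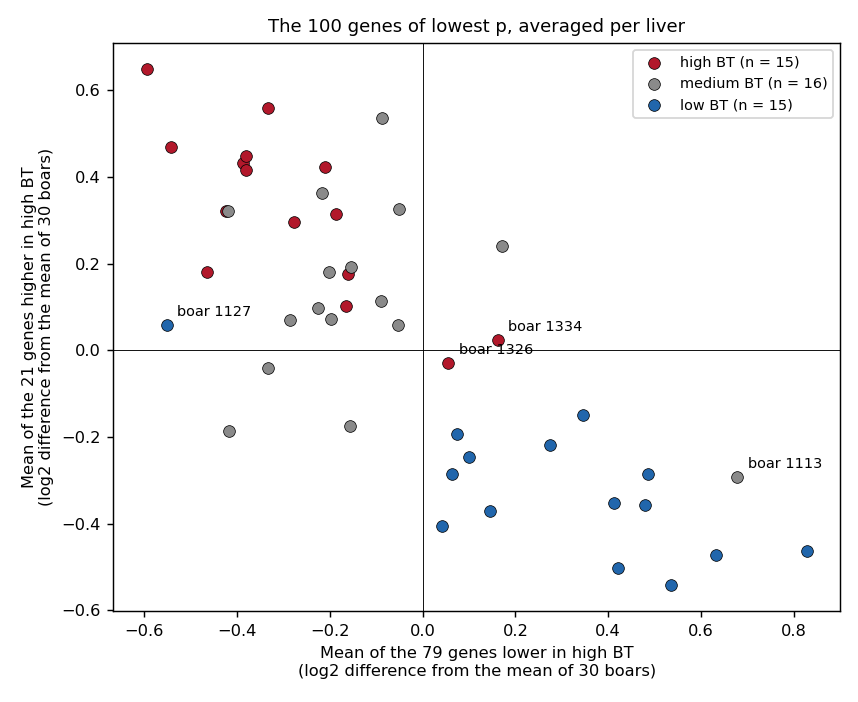
Mean over the 21 genes higher in high BT against the mean over the 79 genes lower in high BT, per liver, as log2 differences from the mean of the 30 high and low BT boars, with high BT in red, medium BT in grey and low BT in blue. The same contrast chose the genes, so the separation is a description, and boar 1127 of low BT, at -0.55 on the horizontal axis, lies among the high BT boars there.

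Of the phase I enzymes of skatole and other small molecules, 11 of 18 listed genes were tested. CYB5A was lower and CYB5R3 was higher in high BT at an unadjusted p under 0.05, 2 of the 11 against 17.7% of all genes, a share near the background. The median log2 fold change was -0.29 against 0.01 for all genes. Without the 3 livers of lowest weight 1 gene of the list was higher and 0 were lower at that level, and the median was -0.12. In edgeR 0 were higher and 2 lower, and with the share of the 10 most-read genes as a covariate 0 were higher and 0 lower. Cytochrome b5 (CYB5A), which passes electrons to cytochromes P450 and in the testis to the lyase reaction that leads to androstenone, ran from 664 over a median of 1058 to 2457 CPM in high BT and from 714 over 1502 to 3831 CPM in low BT. Of the 15 high BT livers, 11 lay below the low BT median, and 3 low BT livers lay above every high BT liver. Its log2 fold change was -0.41 ± 0.19 (limma adjusted p = 0.241). The reductase of cytochrome b5, CYB5R3, was at 0.35 ± 0.15 (limma adjusted p = 0.210), with medians of 141 and 107 CPM. CYP2E1 and CYP2A19, the P450 enzymes best known for oxidising skatole in the pig, differed little in median. CYP2E1 ran from 1043 over 3417 to 6272 CPM in high BT and from 2015 over 3420 to 5690 CPM in low BT. Its log2 fold change was -0.01 ± 0.21 with a 95% confidence interval from -0.44 to 0.43, so a doubling lay outside the interval. CYP2A19 varied so widely, from 4.30 over 131 to 570 CPM in high BT and from 46.1 over 144 to 540 CPM in low BT, that its interval around -0.70 ± 0.64 reached from -2.00 to 0.59. CYP1A1, an enzyme induced through the aryl hydrocarbon receptor, was at -0.59 ± 0.42 with medians of 9.61 and 19.7 CPM. Over the 12 cytochromes P450 tested of 25 with a symbol, 0 had an unadjusted p under 0.05 in limma and 2 in edgeR, and the median was -0.10.

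Conjugation, the phase II step, could be followed in 5 of 15 listed genes. Glutathione reductase (GSR), which restores reduced glutathione, was lower in high BT at an unadjusted p under 0.05, 1 of the 5 against 17.7% of all genes. It ran from 4.45 over 7.76 to 17.8 CPM in high BT and from 6.33 over 12.9 to 21.2 CPM in low BT, a log2 fold change of -0.58 ± 0.16 (limma adjusted p = 0.0808). GSR is among the genes that the study drew from these same livers, so its direction here is no independent evidence. The methyltransferase NNMT was at 0.76 ± 0.39 (limma adjusted p = 0.301) and ranged from 41.8 to 1540 CPM in high BT and from 21.0 to 706 CPM in low BT. The median of the list was 0.06, turning to -0.02 in edgeR.

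None of the 11 genes of steroid metabolism tested, of 17 listed, had an unadjusted p under 0.05 in limma, and edgeR likewise gave 0. Their log2 fold changes lay between -0.40 and 0.28 with a median of -0.18. The ends of this range were NR1I3, the constitutive androstane receptor that drives drug metabolism, at -0.40 ± 0.24, and HSD17B7, a hydroxysteroid dehydrogenase that also acts in cholesterol synthesis, at 0.28 ± 0.18. Of 11 genes of bile acid and cholesterol handling tested, of 12 listed, NR0B2 was the 1 with an unadjusted p under 0.05, against 17.7% of all genes. With the share of the 10 most-read genes as a covariate 0 of the 11 had one, and without the 3 livers of lowest weight 2 were higher. NR0B2, the small heterodimer partner that represses bile acid synthesis, ran from 20.8 over 37.2 to 91.8 CPM in high BT and from 7.52 over 30.2 to 51.8 CPM in low BT, at 0.65 ± 0.25 (limma adjusted p = 0.159). Its target CYP7A1, the rate-limiting enzyme of bile acid synthesis, had the widest range of the list, from 0.768 over 5.79 to 41.1 CPM in high BT and from 1.94 over 15.6 to 896 CPM in low BT. In 5 low BT livers CYP7A1 exceeded every high BT liver, and its log2 fold change was -1.43 ± 0.74 in limma (adjusted p = 0.311) and -3.26 in edgeR (adjusted p = 0.163). The medium BT median of CYP7A1 was 28.3 CPM, above both other groups.

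Lists of ribosomal and respiratory genes had medians below 0, whereas the wider set of signal recognition and signal peptidase genes was centred near 0. Over all genes, 10.1% were lower and 7.63% higher at an unadjusted p under 0.05, which is the background for the counts of these lists. Peptide synthesis, electron transport and signal peptide handling were among the themes the study drew from these livers, so the counts below are no independent evidence of direction. Of 22 cytosolic ribosomal proteins with a symbol, 20 were below 0, with a median of -0.16, and 7 had an unadjusted p under 0.05, all lower. This became 9 without the 3 livers of lowest weight and 4 with the share of the 10 most-read genes as a covariate. They varied together, and with group means removed the median correlation of pairs was 0.83. The 22 genes are thus far from 22 separate measurements. RPS3A, of the small subunit, ran from 997 over 1583 to 2710 CPM in high BT and from 815 over 2081 to 4841 CPM in low BT, at -0.50 ± 0.18 (limma adjusted p = 0.127). RPL14 and RPL5, of the large subunit, were at -0.51 ± 0.18 and -0.38 ± 0.14. These 3 were the ones at an unadjusted p under 0.05 of the 5 tested from a listed 18. Among 43 mitochondrial ribosomal proteins 3 were higher and 11 lower at that level, and edgeR gave 0 and 5. Without the 3 livers of lowest weight they were 4 and 13. MRPS35 was at -0.36 ± 0.11.

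Of the 20 subunits of respiratory complex I with a symbol, 9 were lower and 1 was higher in high BT at an unadjusted p under 0.05 in limma, but 2 were lower and 1 higher in edgeR. Over all genes 10.1% were lower and 7.63% higher in limma, and 1012 of the 12232 genes were lower in edgeR, so the edgeR counts of these subunits were near its own background. The median was -0.19. In the 19 listed subunits of complexes III to V, 6 were lower and 0 higher, the median was -0.21, and edgeR gave 3 lower. That list does not hold COX1, COX2, COX3 and CYTB, the subunits of these complexes among the 10 most-read genes. They were on the other side, at 0.24, 0.36, 0.42 and 0.31, with limma p-values of 0.223, 0.0942, 0.0742 and 0.170. Without the 3 livers of lowest weight, 9 of the 19 were lower. With the share of the 10 most-read genes as a covariate the lower genes numbered 4 of 20 and 3 of 19, and the mitochondrial ribosomal proteins 2 of 43. In the list of 16 genes of oxidative phosphorylation, 7 were tested and 3 were lower at an unadjusted p under 0.05: NDUFS4, of complex I, at -0.37 ± 0.17, NDUFA4, of cytochrome c oxidase, at -0.30 ± 0.13, and COX7A2, of the same enzyme, at -0.26 ± 0.12. None of the 3 had an unadjusted p under 0.05 in edgeR, where the adjusted p-values were 0.422, 0.444 and 0.448, and with the share of the 10 most-read genes as a covariate 0 of the 7 had one. The proteasome had 4 of 24 lower, or 6 without the 3 livers of lowest weight, and a median of -0.04.

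Signal peptidase, the complex that removes signal peptides from proteins entering the endoplasmic reticulum, held SPCS3, the gene of lowest p in these lists. SPCS3, a subunit that has no catalytic site, ran from 76.9 over a median of 114 to 163 CPM in high BT and from 84.8 over 187 to 303 CPM in low BT. All 15 high BT livers lay below the low BT median, 8 low BT livers lay above every high BT liver, and the medium BT median was 114 CPM. The log2 fold change was -0.58 ± 0.13 (limma adjusted p = 0.0513). SEC11C, a catalytic subunit, was at -0.66 ± 0.16 (limma adjusted p = 0.0513), with 60.8, 98.2 and 152 CPM as lowest, median and highest in high BT and 79.4, 149 and 294 CPM in low BT. SPCS1 was at -0.35 ± 0.11 (limma adjusted p = 0.0885), and all 15 high BT livers lay below its low BT median. SRP14, of the signal recognition particle that brings ribosomes to the membrane, was at -0.72 ± 0.20 (limma adjusted p = 0.0808) with medians of 2.49 and 4.16 CPM. These 4 were the ones at an unadjusted p under 0.05 of 10 tested from 13 listed, against 17.7% of all genes, and the median of the 10 was -0.16. The other signal peptidase subunits tested, SPCS2 and SEC11A, were also below 0, at -0.15 and -0.14 (limma p = 0.0905 and 0.104). Over 20 genes of signal recognition, translocation and signal peptidase the median was -0.02, with 4 lower and 1 higher at an unadjusted p under 0.05. This wider list was thus centred near 0, although the signal peptidase subunits in it lay below 0. The median of these 20 was 0.01 without the 3 livers of lowest weight and -0.13 without TMM factors. As a large family with no such role, 135 zinc finger genes of the ZNF series had 10 higher and 16 lower, near the 7.63% and 10.1% of all genes, and a median of -0.04.

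**Figure D5:**
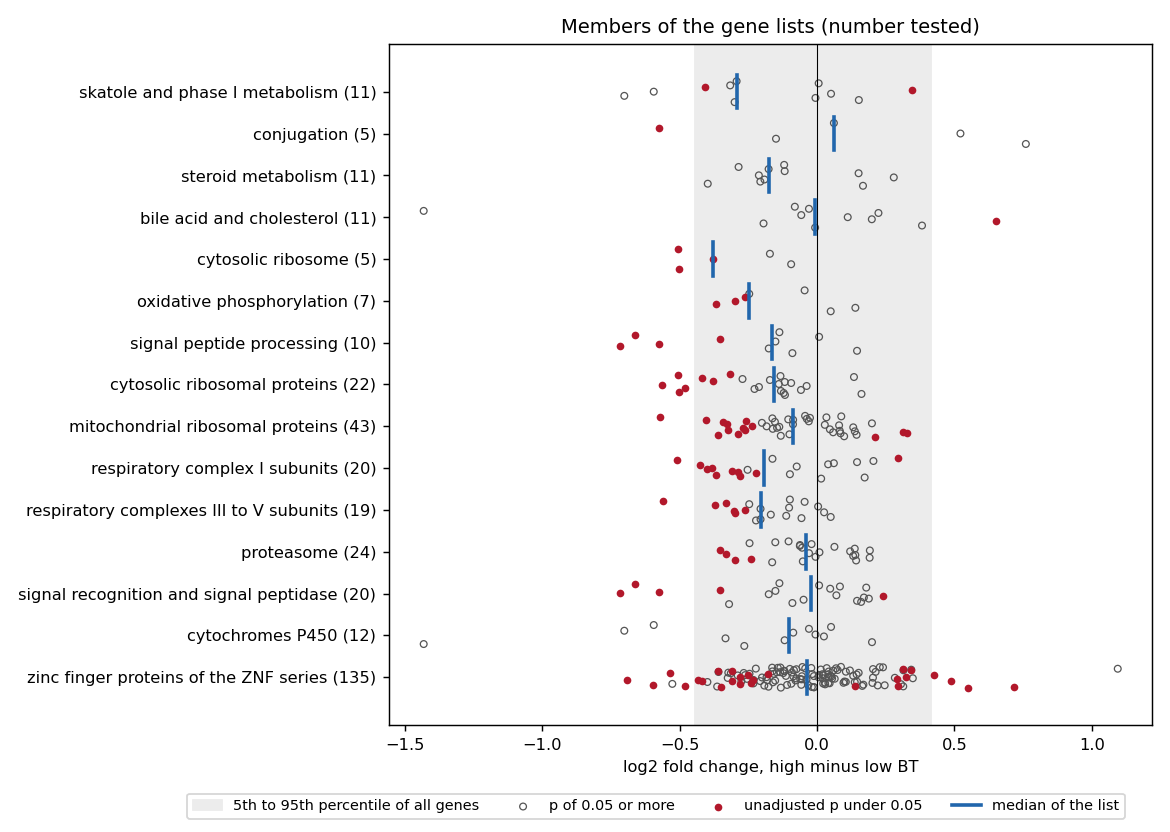
Log2 fold change (high minus low BT) of each tested member of 15 gene lists, with members of unadjusted p under 0.05 in red, the median of each list in blue and the 5th to 95th percentile of all genes, -0.45 to 0.42, in grey. The medians run from -0.38 in the 5 listed cytosolic ribosomal genes to 0.06 in the 5 of conjugation.

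Markers of the liver's cell types differed little between the groups. None of the tested markers of hepatocytes (6 of 7 listed), Kupffer cells and macrophages (3 of 6), endothelium (2 of 5), stellate cells (4 of 6), cholangiocytes (2 of 4) and lymphocytes (3 of 5) had an unadjusted p under 0.05 in limma or in edgeR. The hepatocyte markers, led by albumin, summed to between 46459 and 248747 CPM in high BT and between 87180 and 203167 CPM in low BT, and no library lacked them. The median log2 fold change of the 2 endothelial markers was 0.19, and their sum was 83.6 to 210 CPM in high BT and 93.0 to 184 CPM in low BT. ENG was higher on the same side, and the part of endothelium in it was not tested. Lymphocyte markers summed to 45.0 to 184 CPM and 43.0 to 155 CPM. Of 3 erythroid markers 2 were tested, and 1 was lower at an unadjusted p under 0.05, against 17.7% of all genes. Beta globin (HBB), which comes with blood left in the tissue, was at -0.95 ± 0.39 (limma p = 0.0196, limma adjusted p = 0.190), with 96.5, 1399 and 3601 CPM as lowest, median and highest in high BT and 569, 2036 and 9141 CPM in low BT. HBB was thus on the same side as the lower genes, and its part in their difference was not tested.

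None of the genes with the most reads separated the groups. Over the 10 genes of highest level the log2 fold changes lay between -0.17 and 0.42, with standard errors from 0.13 to 0.23 and a lowest limma adjusted p of 0.333. Albumin (ALB) ran from 33331 over a median of 144320 to 210500 CPM in high BT and from 72645 over 123030 to 151210 CPM in low BT, at 0.31 ± 0.18 (limma adjusted p = 0.384).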

How the data were processed

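Reads had been trimmed by the authors (cutadapt 1.8.1, Trimmomatic 0.33), aligned by STAR against the pig genome 10.2 of Ensembl 79 and assigned to genes by HTSeq 0.6.0. The deposited values are raw counts per gene and library, without normalisation. SAMtools 1.3.1 is also named. Tool versions are from the submitters' processing notes. The strand setting of the counting is not given in the sources used here.

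Genes with a mean count above 5 over the 30 livers were kept. TMM factors (edgeR 4.0.16), voom with sample quality weights and the moderated test of limma 3.58.1 were run in R 4.3.3, with high and low BT as the only term, two-sided and with Benjamini-Hochberg adjustment. Alternatives were the quasi-likelihood test of edgeR, DESeq2 1.42.0, fits without weights or with other scaling, other count minimums, added livers, covariates and refits without each liver. Library measures were compared with 100000 permutations. Means over genes used log2 of CPM plus 0.1. The 95% intervals cover the spread between boars only. Scripts were tested on simulated counts.

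Symbols were matched to 11804 of 25322 identifiers, which leaves members of each list untested. Reads of overlapping genes or close copies may be shared. The genes named were the 10 of lowest p in each direction, the 10 of most reads and members of the lists. The 10 of most reads were given as a range except for ALB, COX1, COX2, COX3 and CYTB. Further genes with a symbol, the extremes, and the families taken by symbol (ribosomal, respiratory, proteasome, signal recognition, P450 and ZNF) were chosen after values were seen. The comparison, lists and tests were chosen with earlier results of these data known. All stranded mRNA livers are in 1 batch by the submitters' labels. A gene is not reported here and was left out of its list.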

Additional observations from a re-analysis of the deposited data

How the results depend on the processing

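The number of genes passing an adjusted p of 0.05 depended on the processing. It was 0 in limma and stayed 0 in edgeR, without quality weights, with the percentage of reads assigned to genes as a covariate, with DESeq2 size factors, and with the share of the 10 most-read genes as a covariate. It was 21 in DESeq2, 173 without TMM factors, 95 with upper-quartile factors, 2 without a minimum count, 161 with at least 10 counts in every liver, 171 with all 3 merit groups, 49 with the 2 total RNA livers, and 323 without the 3 livers of lowest weight. Leaving out 1 liver gave 0 to 472. DESeq2 size factors, the share of the 10 most-read genes and the removal of 3 livers were settings chosen after seeing the data. The unadjusted count of 2170 moved by over 1.5 times in 1 setting, to 1120 with the share of the 10 most-read genes as a covariate, and was 1796 to 2535 without 1 liver. The median log2 fold change of all genes was -0.0705 without TMM factors, 0.0221 with all 3 groups, and from 5.001e-05 to 0.0243 without 1 liver. The cause of these shifts was not tested.

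Of the single genes named, CYP2E1 changed sign, to 0.0257 with at least 10 counts in every liver, 0.0265 with the total RNA livers, 0.0070 with all 3 groups, 0.0164 with the share of the 10 most-read genes and 0.0594 without the 3 livers of lowest weight, and lay between -0.112 and 0.102 without 1 liver. Among library measures, the difference in scaling factor ran from -0.0440 to 0.00922 and that in the percentage of reads assigned from -0.235 to 1.49 without 1 liver. No paired analysis was possible because the livers of high and low BT came from different boars and the labels give each boar its own number.

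The boars of a group can share a sire, the merit is the sire's, and the symbols cover part of the genes, so unmatched members of a pathway were not seen. At the depths here, genes below 0 log2 CPM carried a median standard error of 0.32.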

Other observations

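Among the 150 genes of lowest p, 6 pairs stood next to each other in the order of genes on the RefSeq assembly Sscrofa11.1, in which 7815 tested genes could be placed. With group means removed, KBTBD3 and AASDHPPT varied together over the 30 boars with Pearson's r of 0.74 and Spearman's rho of 0.68 (permutation p of 1e-05, the smallest possible, for r and of 0.0002 for rho, adjusted over the 6 pairs 3e-05 and 0.0006). Without the 2 boars farthest from the median the value of r was 0.62. UBXN8 and GSR had an r of 0.74 and a rho of 0.72 (permutation p of 1e-05 for each, adjusted 3e-05 and 6e-05), and an r of 0.68 without 2 boars. SGPP1 and WDR89 had an r of 0.65 and a rho of 0.57 (permutation p of 0.00014 and 0.00153, adjusted 0.00028 and 0.00306), and an r of 0.45 without 2 boars. The other 3 pairs had r between -0.36 and 0.43. The permutation p-values test r against 0. The genes were chosen by p in the same contrast, and lower genes so chosen were correlated whatever their position. These p-values therefore say nothing about being neighbours. Pairs of the 79 genes lower in high BT among the 100 of lowest p, whatever their position, had a median r of 0.46 and a 95th percentile of 0.79. GSR is not among those 79 genes. The 3784 adjacent pairs among all the genes placed, whatever their p, had a median r of 0.07 and a 95th percentile of 0.56. Neither set matches the pairs above in both choice and position, and whether being neighbours adds to r was not tested. Whether the members of a pair share reads was not tested.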
